A study of Mus musculus with 6 samples.

Results

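The guanylate binding proteins (GBPs) and the immunity-related GTPases (IRGs) are interferon-inducible GTPases of the macrophage defence against pathogens that live inside cells. Their transcripts were followed here through 10 genes, picked by symbol from a table of 22105 genes: 6 GBP genes (Gbp2, Gbp3, Gbp4, Gbp5, Gbp7 and Gbp9) and 4 IRG genes (Irgm1, Irgm2, Igtp and Iigp1). All 10 symbols were found in the table, once each. The cells were RAW264.7, an established mouse macrophage line that all groups share. In the PBS group, 3 libraries came from cells kept for 24 h with phosphate buffered saline. In the nanoparticle group, 3 libraries came from cells kept as long with CM-PEG-PLGA@DOX/R848, particles dosed to carry 2 µg/mL DOX (doxorubicin, a DNA-damaging topoisomerase poison). R848 is resiquimod, an agonist of the Toll-like receptor Tlr7, PEG and PLGA are polymers of the particle, and the labels leave CM unexplained. No library held doxorubicin, resiquimod or the empty particle alone, so their shares in a difference cannot be told apart. The labels number the libraries 1 to 3 in each group without naming separate cultures, so the p-values below measure the spread between these libraries, which may be technical.

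GBPs are large, dynamin-like GTPases that assemble on the membrane of pathogen vacuoles and on the surface of bacteria that reach the cytosol, where they help to expose bacterial lipopolysaccharide to caspase-11. IRGs fall into effectors such as Iigp1, which load onto and disrupt vacuoles, and the regulatory IRGM proteins Irgm1, Irgm2 and Igtp (Irgm3), which sit on the cell's own membranes and keep the effectors inactive there. Both families are textbook targets of interferon gamma and of type I interferons, through the interferon-stimulated response element (ISRE), bound by interferon regulatory factors among others, and the gamma-activated site (GAS), an element of interferon gamma responses.

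The genes lie in a few tight clusters, which is why their upstream sequences are shown before their levels. On GRCm38 (GENCODE M21), Gbp5, Gbp7, Gbp3 and Gbp2 stand in that order on the plus strand of chromosome 3, between 142493978 and 142638008. Gbp9 and Gbp4 overlap on the minus strand of chromosome 5, between 105077630 and 105139586. Igtp and Irgm2 overlap on the plus strand of chromosome 11, between 58199556 and 58222782. Irgm1 lies apart from them on the minus strand of chromosome 11, between 48861968 and 48871683; Iigp1 lies on another chromosome. Promoter windows of 300 bases (250 before the start and 50 from it on) from RefSeq, build GRCm38.p6, were matched by symbol for 7 members, and there was no entry for Gbp4, Gbp9 or Iigp1.

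The windows were searched on both strands for an ISRE core (GAAANNGAAA), a GAS core (TTCNNNGAA) and a kappa B core (GGGANNTTCC), where N is any base. All 7 members with a window held the ISRE core, against 3.44% of all 32851 RefSeq promoter windows of the same length. The GAS core stood in the windows of 4 members (Gbp5, Gbp7, Igtp and Irgm2), against 8.30% of all windows, and the kappa B core in those of Gbp5 and Gbp2, against 1.47%. Of 10 other GBP and IRG genes with a window, 6 held the ISRE core, 4 the GAS core and 0 the kappa B core. Ifi47, Irgq, Gm5431 and 9930111J21Rik2 held no ISRE core, and all were called higher in the test below. The kappa B match of Gbp2 began 7 bases after the start and is not printed. A second Gbp3 start in RefSeq had a window with none of the 3. Matches of letters are a description of sequence, not of a bound site. The stretches that carry the matches upstream of the start are printed 5′ to 3′ on the strand of the gene, with the matched bases in capitals.
Gbp5 (chr3:142496684-142496900, plus strand): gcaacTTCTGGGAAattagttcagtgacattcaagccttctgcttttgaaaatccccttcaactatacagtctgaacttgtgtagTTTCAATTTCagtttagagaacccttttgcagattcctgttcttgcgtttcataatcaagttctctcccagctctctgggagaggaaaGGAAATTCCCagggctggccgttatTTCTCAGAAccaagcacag
Gbp7 (chr3:142530220-142530302, plus strand): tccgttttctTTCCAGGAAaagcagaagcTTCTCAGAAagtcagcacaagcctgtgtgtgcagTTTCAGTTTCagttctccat
Gbp3 (chr3:142559989-142560024, plus strand): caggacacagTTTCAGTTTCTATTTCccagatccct
Gbp2 (chr3:142620594-142620623, plus strand): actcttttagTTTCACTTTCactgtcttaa
Irgm1 (chr11:48871425-48871460, minus strand): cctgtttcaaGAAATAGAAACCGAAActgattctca
Igtp (chr11:58199501-58199541, plus strand): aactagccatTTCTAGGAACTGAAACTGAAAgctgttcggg
Irgm2 (chr11:58214892-58214932, plus strand): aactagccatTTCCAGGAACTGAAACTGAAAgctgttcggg
The ISRE core read on the opposite strand of the 4 GBP genes and on the gene's own strand of the 3 IRG genes. Its first base stood 165 bases before the start in Gbp5, 53 in Gbp7, 59 in Gbp2, 34 in Igtp and 64 in Irgm2. Gbp3 held overlapping cores at 45 and 39 bases before the start, and Irgm1 at 30 and 24. GAS cores began 245 and 52 bases before the start of Gbp5 and 106 and 87 bases before that of Gbp7.

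Igtp and Irgm2 shared a composite of the GAS core, 2 bases and the ISRE core, beginning 45 and 75 bases before the start. Over all 32851 windows this composite (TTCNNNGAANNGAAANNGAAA) was found in 5, or 0.0152%. The other 3 also belonged to IRG genes of chromosome 11, Tgtp1, Tgtp2 and Gm12185, and their stretches are set below for comparison.
Tgtp1 (chr11:48992304-48992344, minus strand): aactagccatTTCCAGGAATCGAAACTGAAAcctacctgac
Tgtp2 (chr11:49064263-49064303, minus strand): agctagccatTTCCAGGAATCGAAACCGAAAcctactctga
Gm12185 (chr11:48927238-48927278, minus strand): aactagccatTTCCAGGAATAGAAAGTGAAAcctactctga
The 41-base stretches of Igtp and Irgm2 were identical at 40 bases, and those of the other pairs among the 5 at 31 to 37. Tgtp1 and Tgtp2 are near-identical copies that encode a further vacuole-loading effector, Irgb6. The map of matches by distance from the start sets the 10 windows beside each other.

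**Figure D1:**
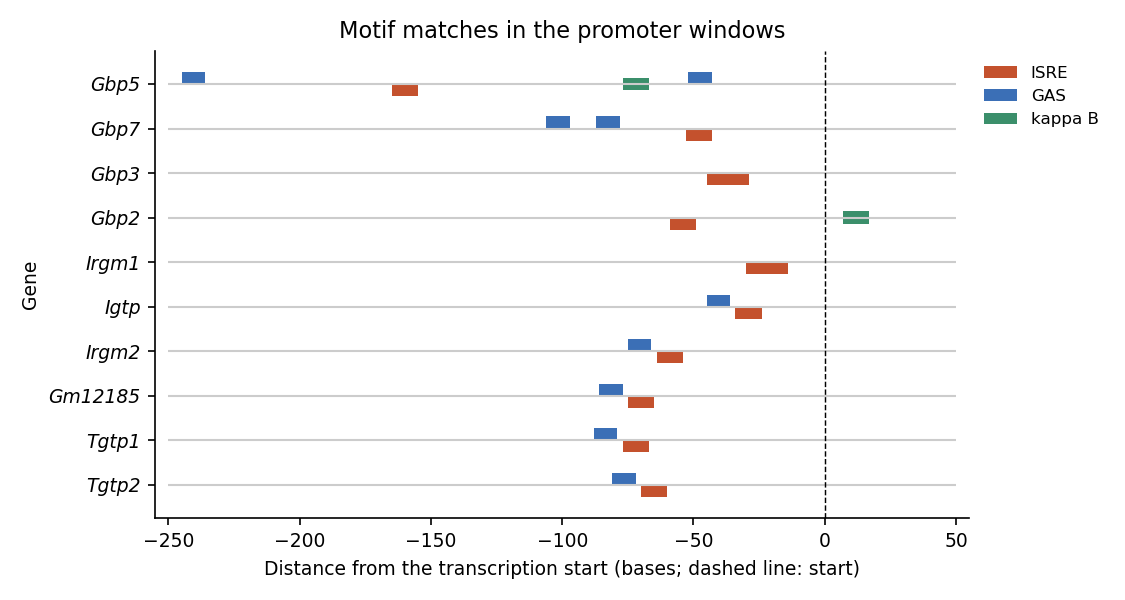
Matches to the ISRE, GAS and kappa B cores in the 300-base promoter windows of 7 members and of Gm12185, Tgtp1 and Tgtp2, by distance from the transcription start in bases (dashed line: start). ISRE matches stand within 165 bases upstream in every window drawn, and in the lower 5 windows a GAS match lies 2 bases before an ISRE match.

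Values were read as FPKM, fragments scaled to transcript length and to library size. The unit was inferred from the values, and comparisons of levels between genes rest on that reading. Over the libraries, 12678 to 12872 genes were above 0 FPKM in the PBS group and 15723 to 15989 in the nanoparticle group. No source used here gives the depth of the libraries. All 10 listed macrophage markers were detected in every library, with a summed level of 3764 to 3926 FPKM in the PBS group and 1649 to 1778 in the nanoparticle group. Markers of fibroblasts, lymphoid cells, epithelium and endothelium summed to at most 0.576, 0.673, 0.240 and 1.17 FPKM in any library. Of these markers only Nkg7 and Ncr1 (lymphoid) and Krt18 and Krt19 (epithelial) were at 0 in all libraries. The endothelial Pecam1 was the highest, at 0.0837 to 0.103 FPKM in PBS and 0.781 to 0.821 in nanoparticle libraries. The summed levels of the lymphoid list (0.0233 to 0.148 FPKM in PBS, 0.291 to 0.673 in nanoparticle libraries), the epithelial list (0, and 0.0859 to 0.240) and the endothelial list (0.153 to 0.337, and 0.978 to 1.17) lay higher in the nanoparticle group, and their part in the results below was not tested. Genes averaging 1 FPKM or more over the 6 libraries were tested with limma on log2(FPKM + 1), and a call needed a Benjamini-Hochberg adjusted p under 0.05, two-sided. By that rule 42.7% of the 10229 genes tested were higher in the nanoparticle group (4366) and 34.5% were lower (3530). This balance turned round under other scalings, with 3710 higher and 4187 lower under upper quartile scaling and 3682 and 4198 under median of ratios scaling. Of the macrophage markers 2 were higher, 7 lower and 1 not called, with Csf1r (295.7 to 49.1 FPKM) and Lyz2 (1503 to 395 FPKM) lower and Adgre1 (1.77 to 12.4 FPKM) higher. The lower call on Itgam was lost on leaving out any library but nanoparticle replicate 2 (limma adjusted p of 0.0529 to 0.157). The higher call on Fcgr1 was lost without PBS replicate 2 or 3 or nanoparticle replicate 2 (0.0731 to 0.0974). Spi1, not called, was called lower without nanoparticle replicate 1 (0.0254).

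All 10 GTPase genes were higher in the nanoparticle group, and for each the lowest nanoparticle library lay above the highest PBS library. The groups were separated that way, with the nanoparticle group on top, in 43.7% of all genes tested. The median of the 10 fold changes on the log2(FPKM + 1) scale was 3.63, against 0.08 over all genes tested. Of the members, 7 reached the filter only through their nanoparticle level (the 6 GBP genes and Iigp1) and had to differ. The count and the median, and the adjusted p-values given below for these 7, are therefore a description and no support. As RNA of a whole culture was measured, more RNA per cell and a larger share of expressing cells cannot be told apart.

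**Figure D2:**
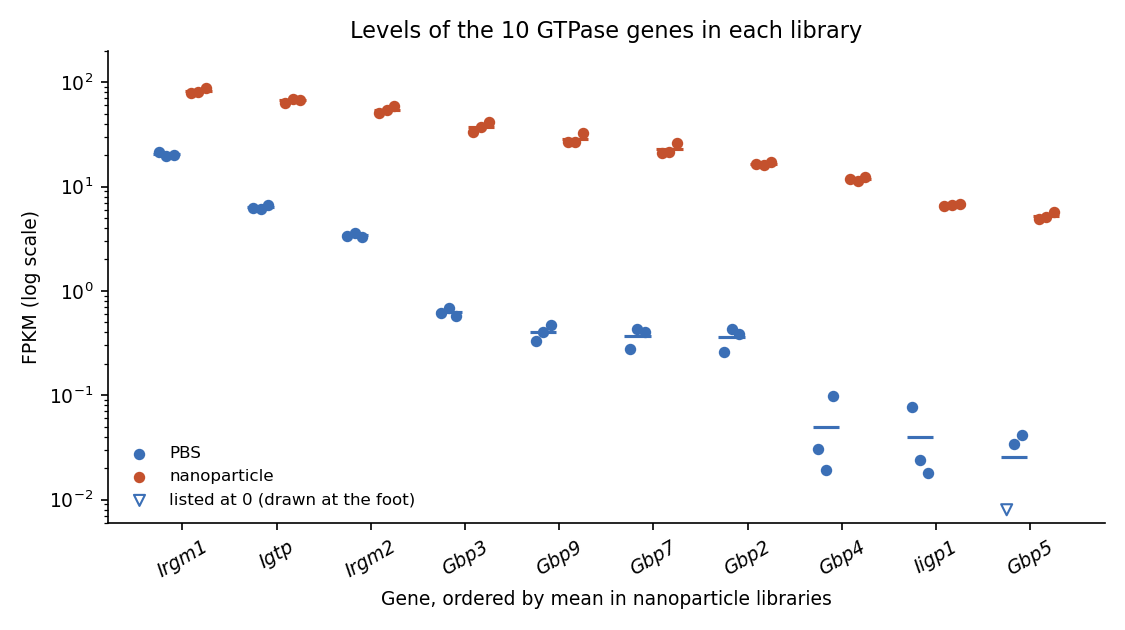
FPKM (log scale) of the 10 GTPase genes in each of 3 PBS and 3 nanoparticle libraries, ordered by the nanoparticle mean (points: libraries, replicates 1 to 3 from left to right; bars: means; open triangle: listed at 0). Nanoparticle libraries run from 4.87 FPKM for Gbp5 to 88.4 for Irgm1, and PBS libraries from 0 for Gbp5 to 21.3 for Irgm1.

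Among the chromosome 3 GBPs, Gbp3 (ENSMUSG00000028268) had the highest level. It stood at 0.618, 0.691 and 0.569 FPKM in PBS replicates 1, 2 and 3 and at 33.2, 36.9 and 41.3 FPKM in nanoparticle replicates 1, 2 and 3. No PBS library reached 1 FPKM, and the nanoparticle libraries spread over less than their distance to PBS. The means were 0.626 ± 0.0614 and 37.1 ± 4.10 FPKM (SD, n = 3), a 59.3-fold ratio. On the log2(FPKM + 1) scale the difference was 4.55 ± 0.09 (SE), with a limma adjusted p of 1.81e-10.

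Gbp7 (ENSMUSG00000040253) has been linked to the delivery of NADPH oxidase and autophagy components to pathogen vacuoles. Its PBS libraries held 0.277, 0.434 and 0.405 FPKM and its nanoparticle libraries 20.8, 21.3 and 26.2 FPKM. Nanoparticle replicate 3 stood above the other two, and the groups did not overlap. The means, 0.372 ± 0.0837 and 22.8 ± 2.94 FPKM (SD, n = 3), stood in a 61.2-fold ratio. The log2(FPKM + 1) difference was 4.11 ± 0.10 (SE; limma adjusted p = 6.12e-10). Gbp7 is the member with the most sequence in common with other genes. Of its 100-base words, 10.01% occur in another gene, mostly the processed pseudogene Gm43802, which covers 637 of its exon bases, so reads there could be shared.

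Gbp2 (ENSMUSG00000028270) carries a prenylation signal that anchors it in membranes and is required for full caspase-11 activation by cytosolic bacteria. It was measured at 0.263, 0.429 and 0.383 FPKM in the PBS libraries and at 16.3, 15.9 and 17.03 FPKM in the nanoparticle libraries. The nanoparticle libraries lay close together and far from PBS. The group means of 0.358 ± 0.0858 and 16.4 ± 0.557 FPKM (SD, n = 3) were 45.9-fold apart, and the log2(FPKM + 1) difference was 3.68 ± 0.08 (SE; limma adjusted p = 3.02e-10).

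Gbp5 (ENSMUSG00000105504), also prenylated and reported to favour assembly of the Nlrp3 inflammasome, had the lowest mean of the 10 in both groups, although under PBS its range overlapped those of Iigp1 and Gbp4. It was listed at 0 in PBS replicate 1 and at 0.0344 and 0.0418 FPKM in PBS replicates 2 and 3. The nanoparticle libraries held 4.87, 5.12 and 5.74 FPKM, a mean of 5.24 ± 0.445 (SD, n = 3). All PBS libraries were at or near 0, so no ratio is given. The log2(FPKM + 1) difference was 2.60 ± 0.09 (SE; limma adjusted p = 4.46e-09), a scale that understates the change of a gene this low.

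On chromosome 5, Gbp9 (ENSMUSG00000029298) stood at 0.329, 0.403 and 0.467 FPKM in the PBS libraries and at 26.6, 27.0 and 32.7 FPKM in the nanoparticle libraries. As with Gbp7, nanoparticle replicate 3 was the highest and the other two were close. Its means of 0.400 ± 0.0691 and 28.7 ± 3.43 FPKM (SD, n = 3) gave the largest ratio for which the PBS level allowed one, 71.9-fold. The log2(FPKM + 1) difference was 4.40 ± 0.09 (SE; limma adjusted p = 2.76e-10). Gbp4 (ENSMUSG00000079363), reported to restrain Irf7, was near 0 in PBS at 0.0308, 0.0193 and 0.0975 FPKM. Its nanoparticle libraries held 11.8, 11.2 and 12.4 FPKM, all far above the highest PBS library. The nanoparticle mean was 11.8 ± 0.555 FPKM (SD, n = 3) and the log2(FPKM + 1) difference 3.61 ± 0.08 (SE; limma adjusted p = 3.36e-10). Gbp4 and Gbp9 share 60 exon bases on the same strand, 0.801% of the exon bases of Gbp4 and 1.16% of those of Gbp9, and reads from that stretch cannot be assigned.

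The regulatory IRGM genes stood above the GBPs under PBS, at 3.31 FPKM or more in every library against at most 0.691 for any GBP. Irgm1 (ENSMUSG00000046879), needed by macrophages against mycobacteria and linked to autophagy, was the most abundant member in both groups. Its PBS libraries stood at 21.3, 19.7 and 20.1 FPKM and its nanoparticle libraries at 79.6, 81.1 and 88.4 FPKM. The groups did not overlap, and the spread within each was small beside the gap. Means of 20.4 ± 0.830 and 83.0 ± 4.71 FPKM (SD, n = 3) gave a 4.08-fold ratio and a log2(FPKM + 1) difference of 1.98 ± 0.06 (SE; limma adjusted p = 2.83e-09). That was the smallest fold change of the 10 on this scale, and 298 of the 10229 genes tested had one as large or larger.

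Igtp (ENSMUSG00000078853), the IRGM protein of the endoplasmic reticulum and lipid droplets, was measured at 6.27, 6.08 and 6.70 FPKM in PBS libraries. The nanoparticle libraries held 63.8, 69.3 and 67.8 FPKM. It was the only member whose highest nanoparticle library was replicate 2. The means of 6.35 ± 0.317 and 67.0 ± 2.82 FPKM (SD, n = 3) stood in a 10.5-fold ratio, with a log2(FPKM + 1) difference of 3.21 ± 0.06 (SE; limma adjusted p = 1.72e-10). Irgm2 (ENSMUSG00000069874), found at the Golgi apparatus, stood at 3.33, 3.58 and 3.31 FPKM in PBS libraries and at 50.2, 54.1 and 59.5 FPKM in nanoparticle libraries. No library of one group came near the other group. Its means of 3.41 ± 0.152 and 54.6 ± 4.67 FPKM (SD, n = 3) were 16.0-fold apart, and the log2(FPKM + 1) difference was 3.65 ± 0.08 (SE; limma adjusted p = 2.30e-10). Igtp and Irgm2 share 162 exon bases on the same strand, 8.01% of the exon bases of Igtp and 4.39% of those of Irgm2, so a part of each level could come from the other.

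Iigp1 (ENSMUSG00000054072; Irga6), the effector among the IRG members, lies on chromosome 18. It was near 0 under PBS, at 0.0775, 0.0239 and 0.0180 FPKM. In the nanoparticle libraries it stood at 6.53, 6.61 and 6.74 FPKM. These were the most even nanoparticle values of the 10 genes, with a coefficient of variation of 1.65%, against up to 12.9% for Gbp7. The nanoparticle mean was 6.63 ± 0.109 FPKM (SD, n = 3), no ratio is given, and the log2(FPKM + 1) difference was 2.87 ± 0.08 (SE; limma adjusted p = 1.22e-09).

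The order of the 10 levels was the same in both groups: Irgm1, Igtp, Irgm2, Gbp3, Gbp9, Gbp7, Gbp2, Gbp4, Iigp1 and Gbp5, from high to low. In the nanoparticle group no pair of neighbours in this order overlapped over the 3 libraries. In the PBS group the ranges of Gbp9 and Gbp7 overlapped, as did those of Gbp7 and Gbp2, Gbp4 and Iigp1, and Iigp1 and Gbp5, so their order under PBS does not stand out from the spread. Nanoparticle replicate 3 was the highest of its group for 9 of the 10 members, and it was also the highest for 44.5% of all genes tested.

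The balance between the families differed more than the order. The 10 genes summed to 32.0 ± 0.571 FPKM in the PBS group and 333 ± 22.5 in the nanoparticle group (SD, n = 3), a 10.4-fold ratio. The 6 GBPs rose from a sum of 1.83 ± 0.272 to 122 ± 11.6 FPKM, 66.7-fold, and the 4 IRGs from 30.2 ± 0.807 to 211 ± 11.2 FPKM, 7.003-fold. GBPs therefore made up 5.73% ± 0.930 of the sum under PBS and 36.6% ± 1.09 under nanoparticles (SD, n = 3). Irgm1 alone made up 63.6% ± 1.63 of the sum under PBS and 24.9% ± 0.391 under nanoparticles. The share of Igtp, 19.8% ± 0.870 and 20.1% ± 1.07, differed by less than its spread.

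**Figure D3:**
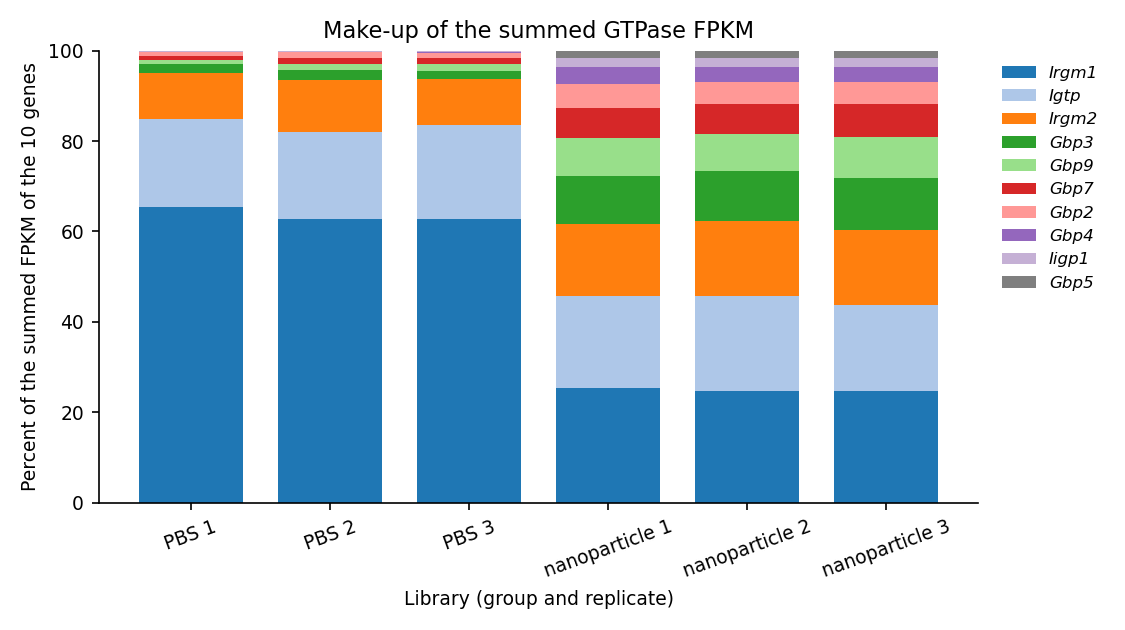
Percent of the summed FPKM of the 10 GTPase genes held by each gene, by library (3 PBS and 3 nanoparticle libraries; each bar sums to 100%). Irgm1 holds 62.7% to 65.5% of the PBS bars and 24.7% to 25.4% of the nanoparticle bars, and the GBP segments fill 35.8% to 37.8% of the latter.

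Which gene changed most depended on the scale, because 7 of the 10 were below 1 FPKM under PBS. With a pseudocount of 1 FPKM the largest fold change was that of Gbp3 (4.55 on the log2 scale) and the smallest that of Irgm1. With a pseudocount of 0.1 FPKM it was Gbp4 at 6.35, followed by Gbp9 at 5.85, with Irgm1 last at 2.02. With a pseudocount of 10 FPKM the regulatory genes Irgm2 and Igtp led at 2.27 and 2.23, and Gbp5 was last at 0.60. The direction could not differ between the 3 settings, since for each of the 10 genes every nanoparticle library lay above every PBS library.

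The rest of both families was read from a list of 19 further GBP and IRG genes, of which 17 were in the table. Of the other GBPs, all 3 tested were higher, with a median log2(FPKM + 1) difference of 2.26, but all 3 passed the filter only through their nanoparticle level and had to differ. Gbp2b, the mouse Gbp1 of the older literature, went from 0.218 ± 0.0295 to 16.5 ± 1.76 FPKM (SD, n = 3), a log2(FPKM + 1) difference of 3.84 ± 0.09 (SE; limma adjusted p = 4.51e-10). Gbp6 and Gbp10 reached 3.89 and 2.45 FPKM from nearly 0, with log2(FPKM + 1) differences of 2.26 and 1.77. They share 64.5% and 73.5% of their 100-base words with other genes, so their levels are uncertain one by one. Gbp8 and Gbp11 stayed below the filter and were not tested, at 1.25 and 0.503 FPKM in the nanoparticle group.

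Of the other IRG genes, all 7 tested were higher, with a median log2(FPKM + 1) difference of 1.39, against 42.7% of all genes tested, and 2 of the 7 (Tgtp1 and Tgtp2) passed the filter only through their nanoparticle level. The near-identical effectors Tgtp1 and Tgtp2, whose promoters carry the composite shown above, were at 0.0209 and 0.0296 FPKM under PBS and at 3.35 and 2.51 FPKM under nanoparticles. Their log2(FPKM + 1) differences were 2.09 and 1.77, and they share 73.2% and 76.8% of their 100-base words with other genes. Ifi47, an effector IRG also called Irg-47, was detected in both groups at 5.05 ± 0.589 and 17.2 ± 0.509 FPKM (SD, n = 3), 3.41-fold apart. The remaining 4 were Gm5431 at 1.39, 9930111J21Rik2 at 1.28, Irgq at 0.94 and 9930111J21Rik1 at 0.78 on the log2(FPKM + 1) scale. The 9930111J21Rik genes share 70.6% (Rik1) and 48.3% (Rik2) of their 100-base words with other genes and are uncertain one by one. The third gene with the composite, Gm12185, was at 0.0783 FPKM under PBS and 0.603 FPKM under nanoparticles and was not tested.

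A further list of large interferon-inducible proteins held 4 tested GTPase genes of other families and Rnf213, which encodes an ATPase and ubiquitin ligase. All 5 were higher, against 42.7% of all genes tested, with a median log2(FPKM + 1) difference of 2.65. Of the 5, Mx1 passed the filter only through its nanoparticle level. The antiviral Mx2 went from 1.46 ± 0.220 to 35.4 ± 1.76 FPKM (SD, n = 3) and Mx1 from 0.0765 ± 0.0246 to 8.17 ± 0.852 FPKM, with log2(FPKM + 1) differences of 3.89 and 3.09. Rnf213, whose product coats bacteria with ubiquitin, went from 15.7 ± 1.71 to 104 ± 13.2 FPKM, 6.62-fold. The very large interferon-induced GTPases Gvin1 and Gvin2 had log2(FPKM + 1) differences of 1.72 and 1.81 and share 97.8% and 95.6% of their 100-base words with other genes, so their levels are uncertain. A list of dynamin superfamily genes outside the interferon-inducible families included those of the ATP-binding EHD proteins. It gave 5 genes higher and 5 lower of 10 tested, with a median of -0.01. The endosomal Ehd1 (29.4 to 90.4 FPKM) and the endocytic Dnm2 (57.1 to 94.9 FPKM) had the smallest p-values, and Ehd4 (62.4 to 46.1 FPKM) was lower. The call on Mfn1 (0.23) was lost without PBS replicate 1 (limma adjusted p = 0.0547). That on Dnm1l (-0.26) was lost without PBS replicate 2 or 3 or nanoparticle replicate 1 or 2, with limma adjusted p-values of 0.0694 to 0.120.

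**Figure D4:**
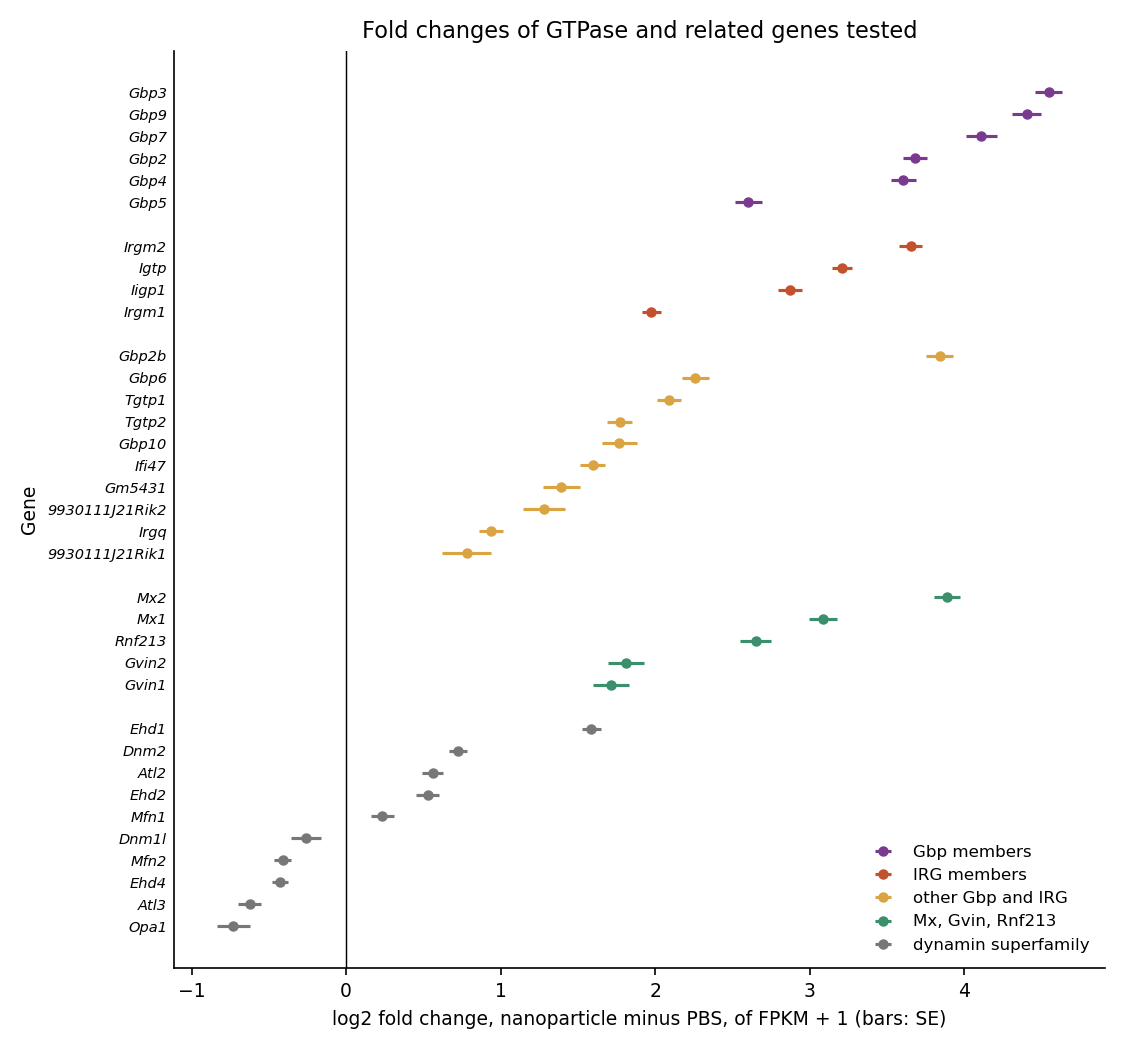
Difference in log2(FPKM + 1), nanoparticle minus PBS, for every tested gene of the GTPase and related lists (points: estimates; bars: SE of the limma fit). The 10 members range from 1.98 to 4.55, the other GBP and IRG genes from 0.78 to 3.84, the Mx, Gvin and Rnf213 genes from 1.72 to 3.89, and the dynamin superfamily lies on both sides of 0.

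The genes that act before, with and after the GTPases were read from further lists, shown together in the plot of differences by gene list. Of 8 interferon genes, only Ifnb1, which encodes interferon beta, was tested. It was listed at 0 in all PBS libraries and at 3.62, 4.45 and 3.74 FPKM in the nanoparticle libraries, with a log2(FPKM + 1) difference of 2.30 ± 0.09 (SE). It passed the filter only through its nanoparticle level and had to differ, so its call adds nothing to these values. Ifng, the gene of interferon gamma, was listed at 0 in all PBS libraries and had a nanoparticle mean of 0.0126 FPKM.

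Of 11 tested receptor, kinase and feedback genes, 5 were higher, 3 were lower and 3 were not called (all genes tested: 42.7% higher, 34.5% lower). The median was 0.15. The phosphatase gene Ptpn6 (177.6 to 75.6 FPKM) and the type I receptor kinase gene Tyk2 (17.6 to 12.7 FPKM) were lower, and the interferon gamma receptor kinase gene Jak2 (6.32 to 13.97 FPKM) was higher. Both chains of the interferon gamma receptor missed the threshold: Ifngr1 had a log2(FPKM + 1) difference of 0.03 ± 0.07 (SE; limma adjusted p = 0.754) and Ifngr2 of 0.15 ± 0.08 (adjusted p = 0.0934, and 0.0385 without PBS replicate 2). Under upper quartile or median of ratios scaling, 3 or 4 genes of this list were higher.

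Of 16 tested genes of a transcription factor list (Stat, Irf, Batf, Nfkb1, Rel and Rela genes and Spi1), 13 were higher, 2 lower and 1 not called. Over all genes tested 42.7% were higher and 34.5% lower, and the median of the list was 0.99. Batf, counted as higher, passed the filter only through its nanoparticle level (0.166 to 11.8 FPKM) and had to differ. Irf7, the factor that amplifies type I interferon, went from 52.5 ± 2.20 to 1047 ± 63.4 FPKM (SD, n = 3), and Stat2 from 6.76 ± 0.536 to 56.7 ± 3.17 FPKM. Irf1, a factor that drives GBP genes, stood at 5.41 ± 0.348 and 18.1 ± 0.490 FPKM, 3.36-fold apart. Irf2, which competes with Irf1 for the same element, was lower at 18.3 ± 1.43 and 12.8 ± 0.687 FPKM, a log2(FPKM + 1) difference of -0.49 ± 0.07 (SE; limma adjusted p = 2.00e-04). Irf8, the other gene called lower, missed the threshold without PBS replicate 1 (adjusted p = 0.0518).

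Downstream of the GBPs, 8 of 9 tested inflammasome genes were higher and 1 was lower (all genes tested: 42.7% and 34.5%), with a median of 1.06. Casp4, the mouse caspase-11 that GBPs help to activate, stood at 7.25 ± 0.427 FPKM under PBS and 131 ± 4.96 under nanoparticles (SD, n = 3), and Il1b, the cytokine gene, had the largest fold change of the list. Nek7, a kinase that Nlrp3 needs, was lower, with a log2(FPKM + 1) difference of -1.22 ± 0.09 (SE; limma adjusted p = 8.53e-07). Gsdmd, the pore protein cut by caspase-11, had a difference of 0.29 that did not pass under either of those scalings, and the adaptor Pycard was at 0.0220 FPKM or less on average and not tested.

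The Atg8 conjugation system marks the membranes that IRG effectors and GBPs are directed to. Of its 13 tested genes, 8 were higher, 2 lower and 3 not called (all genes tested: 42.7% higher, 34.5% lower), with a median of 0.29. The Atg8 genes Gabarapl1 (29.3 to 99.7 FPKM) and Map1lc3a (1.54 to 23.8 FPKM) had the smallest p-values, while the conjugating enzyme Atg10 was lower with a log2(FPKM + 1) difference of -0.67. Atg5 and Atg16l1, parts of the conjugating complex that delivers IRGs and GBPs to vacuoles, were not called, with differences of -0.01 and 0.06. Under the same scalings 6 of the 13 were higher. The call on Atg16l2 (0.26) was lost without PBS replicate 1 or 3 or any nanoparticle replicate, with limma adjusted p-values of 0.0516 to 0.184. Of 9 tested genes for ubiquitin and its receptors at vacuoles, 7 were higher, 1 lower and 1 not called, beside the same shares. The median was 1.07. Sqstm1, the receptor p62, and Trim21 (2.94 to 13.9 FPKM) had the smallest p-values, and Rbck1 was lower at -0.64. Of 6 genes of the prenylation pathway that lipidates Gbp2 and Gbp5, 2 were higher, 1 lower and 3 not called. The shares over all genes tested were again 42.7% higher and 34.5% lower, and the median of the 6 was 0.04. Pggt1b, a subunit of the enzyme that adds geranylgeranyl groups, went from 3.996 ± 0.120 to 7.26 ± 0.569 FPKM, Icmt from 13.7 ± 0.213 to 19.1 ± 0.803 FPKM, and Fntb from 9.77 ± 0.534 down to 7.35 ± 0.0509 FPKM (SD, n = 3).

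**Figure D5:**
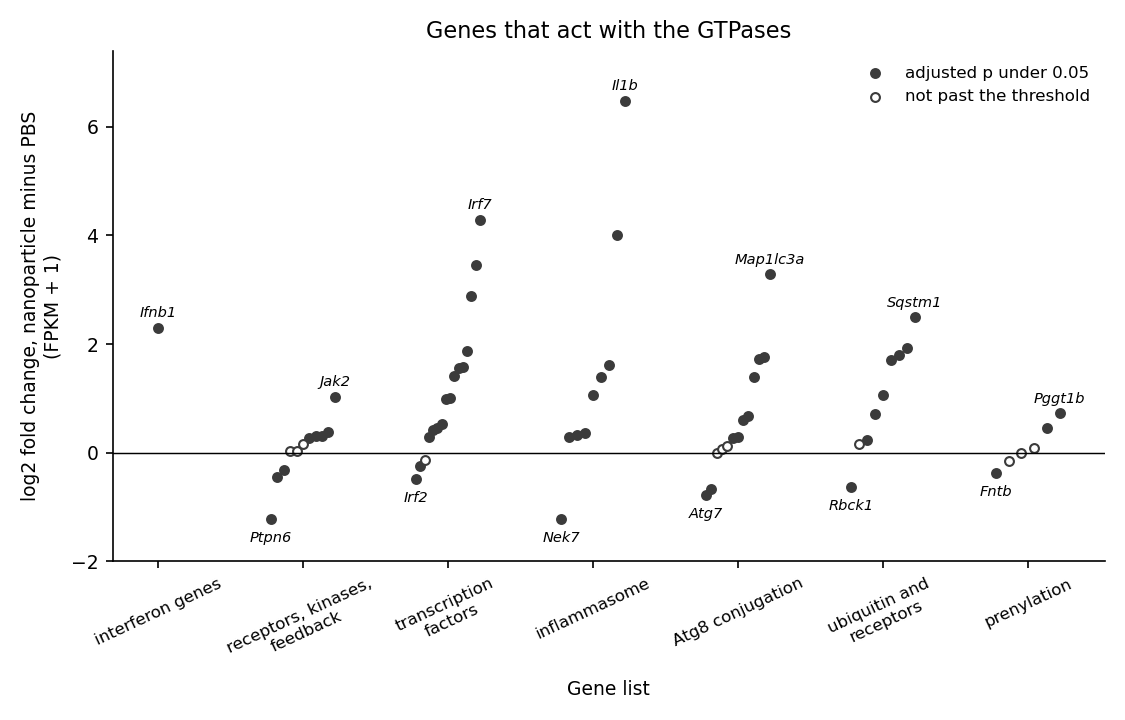
Difference in log2(FPKM + 1), nanoparticle minus PBS, for every tested gene of 7 lists of genes that act with the GTPases (filled: limma adjusted p under 0.05; open: not past it). Each list is sorted from low to high, and each but the interferon list has genes on both sides of 0, from -1.22 for Nek7 to 6.48 for Il1b.

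Neighbouring genes were read for comparison with the clusters. Within 200 kb of a member, GENCODE annotates 27 protein-coding genes outside the GTPase lists, and 20 of them were tested. Of these, 11 were higher, 7 lower and 2 not called (all genes tested: 42.7% higher, 34.5% lower). Their median log2(FPKM + 1) difference was 0.28 against 3.63 for the members. Of the 10 members, 7 passed the filter only through their nanoparticle level, so the filter itself widened this gap. Gm43302, the neighbour with the largest difference (3.18), shares exons with Gbp6 and Gbp10, so its level is not independent of theirs. Next came Smim3 near Iigp1 at 2.20 and Trim7 near Irgm1 at 1.79. Gm43302 and Trim7 passed the filter only through their nanoparticle level and had to differ. Larp1 near Igtp and Irgm2 fell by 1.007, Kyat3 near the chromosome 3 GBPs by 0.61 and Rack1 near Irgm1 by 0.53 on the same scale.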

How the data were processed

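The deposited table held 1 column per library of values read as FPKM, scaled by the authors to transcript length and library size. The unit is inferred from the values, since the header names none. The aligner STAR, the counter featureCounts and the builds mm10 and GRCm38 stand in the submitters' processing notes. One PBS column carries an unexplained suffix. The 509 rows without an Ensembl gene (0.427% to 0.497% of the FPKM) were left out. The test was limma 3.58.1 (R 4.3.3) with an intensity trend on log2(FPKM + 1) over all 6 libraries, for genes averaging 1 FPKM or more, two-sided, with Benjamini-Hochberg adjustment over all genes tested and a threshold of 0.05. It was tested on simulated data. Ratios of means are given where every PBS library held 0.2 FPKM or more. Deviations from the group means correlated between same-numbered libraries at r = 0.130, 0.115 and 0.354 (and at 0.134 between PBS replicate 2 and nanoparticle replicate 1). The other pairs of unlike number had r from -0.261 to 0.0108, below all same-numbered values. The r of 0.134 between unlike numbers exceeded the same-numbered 0.130 and 0.115, so these values do not settle whether the numbers pair the libraries. The main fit left the replicate number out, and a fit with it as a block was an alternative. Coordinates, exon overlaps and shared 100-base words came from GENCODE M21, promoters from RefSeq. Tables were made with Python 3.11.15 and pandas 2.3.3.

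The members, gene lists and tests were chosen with earlier results of these data known. Named were all members, the tested genes of the GTPase lists, of every other list (the dynamin superfamily included) the 2 smallest p-values and the most significant gene going the other way, neighbours within 200 kb, and the 5 genes most like the members. Named after their values were seen were Irf1, Ifng, Ifngr1, Ifngr2, Irf8, Mfn1, Dnm1l, Gsdmd, Pycard, Atg5, Atg16l1, Gbp8, Gbp11, Gm12185 and the genes whose calls changed with the setting. Some values are not reported here.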

Additional observations from a re-analysis of the deposited data

How the results depend on the processing

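Under 15 other settings (pseudocounts of 0.1 and 10 FPKM, no filter, a filter at a mean of 5 FPKM, 2 scalings, rescaling every library to a common total, no intensity trend, the replicate block and leaving out each of 6 libraries), all 148 member values that could be computed stayed higher and past the threshold, with a largest limma adjusted p of 1.2e-06. In the main fit 7 of the 10 members passed the filter only through their nanoparticle level and had to differ. For these 7 the values are a description and no support. The filter at 5 FPKM left 8 members tested, without Gbp5 and Iigp1, and 2 other GBP and IRG genes higher instead of 10. Leaving out 1 library gave 9 to 10 of these, since Gbp10 fell below the filter without nanoparticle replicate 1 or 3. With the replicate block, 4609 genes were higher and 3742 lower, and all 10 members and 10 other family genes stayed higher. The block ended the call on Atg16l2, gained calls on Spi1, Rnf31 and Rce1, and changed no other call in the lists. Upper quartile and median of ratios scaling moved the median difference of all genes by -0.11 on the log2 scale. They ended the calls on Irf3, Ifnar1, Gsdmd, Atg3, Atg16l2, Ube2l3, Fcgr1 and Mfn1 (and upper quartile scaling that on Jak1), each a difference of at most 0.31, and gained lower calls on Spi1 and Rce1. Depth is unknown, so no floor can be set for members near 0 under PBS.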

Other observations

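The genes whose pattern over the 6 libraries was most like the mean of the members, by Pearson's r of log2(FPKM + 1) among the 6301 other tested genes that averaged 10 FPKM or more, were Rsad2 (r = 0.99991), Rnf34 (0.99989), C3 (0.99989), Slfn2 (0.99986) and Vav1 (0.99986). With 2 separated groups, 781 of the genes compared had r above 0.99, so the order among them describes small differences within the groups. Rsad2, the gene of an antiviral radical enzyme, went from 1.44 ± 0.143 to 107 ± 10.4 FPKM (SD, n = 3), and Rnf34, a ubiquitin ligase gene, from 8.18 ± 0.135 to 21.6 ± 0.531 FPKM.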
